A study of Mus musculus with 12 samples.

Results

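The aryl hydrocarbon receptor (AhR) pathway was followed through 9 genes in ventricle tissue after coronary ligation. They are the receptor gene Ahr, its partner Arnt, and 7 genes known as AhR targets, namely Cyp1a1, Cyp1b1, Ahrr, Tiparp, Aldh3a1, Nqo1 and Ugt1a6. They were found by gene symbol among the 23660 genes of the FPKM table and by the same identifier among the 32623 genes of the count table. All 9 were present, and all 9 were among the 16910 genes that passed the filter on low counts. The 9 genes were selected on expression differences already seen in these same 12 libraries, so their values are given as a description, without p-values. A gene is said to have passed the test where its adjusted p was under 0.05 in edgeR's quasi-likelihood test over all 16910 genes.

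The labels give wild-type male C57BL/6J mice aged 6 to 8 weeks and 4 groups of 3 samples each. Sham animals are the surgical controls, and the MI group had the left anterior descending coronary artery tied off (myocardial infarction). The Fer-1+MI group was pre-treated with Fer-1 (ferrostatin-1) at 1 mg per kg per day, and the Lip-1+MI group with Lip-1 (liproxstatin-1) at 3 mg per kg per day. Both compounds were begun 24 h ahead of the ligation. No group received a compound without ligation. The sources used here give neither the vehicle nor how long after ligation the tissue was taken. Both compounds are aromatic amines that trap lipid radicals and block ferroptosis, an iron-dependent cell death. Ferrostatin-1 is a benzoate ester with a cyclohexylamino group, and liproxstatin-1 a quinoxaline joined to a piperidine ring, with a chlorobenzyl group. The labels do not say that the 3 samples of a group are 3 animals, so tests measure the spread between these samples. All gene identifiers start with ENSRNOG, Ensembl's prefix for rat, against the labelled mouse, and no source used here names the build.

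AhR is a ligand-activated transcription factor of the basic helix-loop-helix PAS family. It waits in the cytosol with Hsp90 and co-chaperones, and a ligand sends it to the nucleus, where it pairs with the protein of Arnt and binds xenobiotic response elements with the core letters GCGTG. Planar aromatic pollutants and tryptophan products such as kynurenine are known ligands. The targets include enzymes that oxidise and conjugate small molecules, and the repressors encoded by Ahrr and Tiparp that switch the pathway off again.

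RefSeq promoter sequence of mouse, the labelled species (GRCm38.p6), was available for 7 of the 9 genes, with Ugt1a6 read as Ugt1a6a, and Ahr and Aldh3a1 are only named. The 250 bases ahead of each gene's start were searched for GCGTG on both strands (CACGC on the other strand). Cyp1a1, Cyp1b1, Ahrr, Tiparp and Arnt held the core, 5 of 7 genes, and Nqo1 and Ugt1a6a did not hold it in this window. Of all 32851 RefSeq windows of that length, 28.2% held it. Ahrr held 3 cores, and 2.77% of all windows held 3 or more. The same letters can also form the core of a hypoxia response element. The windows of Cyp1a1, Cyp1b1, Ahrr and Nqo1 are shown because all 3 Lip-1+MI samples lay above the other 9 in these genes, as described further on. Each is written 5′ to 3′ on the strand of its gene, and capitals mark the core in either strand's letters.
Cyp1a1, chr9:57697363-57697612, plus strand: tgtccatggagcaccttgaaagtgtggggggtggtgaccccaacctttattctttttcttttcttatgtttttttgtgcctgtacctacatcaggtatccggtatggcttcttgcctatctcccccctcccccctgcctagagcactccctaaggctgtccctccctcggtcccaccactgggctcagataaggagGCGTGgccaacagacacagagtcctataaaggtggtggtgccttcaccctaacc
Cyp1b1, chr17:79715062-79715311, minus strand: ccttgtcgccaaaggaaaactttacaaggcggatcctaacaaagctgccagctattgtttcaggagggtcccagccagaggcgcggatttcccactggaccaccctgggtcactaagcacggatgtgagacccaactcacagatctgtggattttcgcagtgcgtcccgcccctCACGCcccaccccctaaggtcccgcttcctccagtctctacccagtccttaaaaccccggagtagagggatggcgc
Ahrr, chr13:74292332-74292581, minus strand: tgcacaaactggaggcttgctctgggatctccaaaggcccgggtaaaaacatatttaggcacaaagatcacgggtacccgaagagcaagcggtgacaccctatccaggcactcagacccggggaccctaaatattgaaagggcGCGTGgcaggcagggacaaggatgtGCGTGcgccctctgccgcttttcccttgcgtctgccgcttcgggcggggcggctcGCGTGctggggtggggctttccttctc
Nqo1, chr8:107403206-107403455, minus strand: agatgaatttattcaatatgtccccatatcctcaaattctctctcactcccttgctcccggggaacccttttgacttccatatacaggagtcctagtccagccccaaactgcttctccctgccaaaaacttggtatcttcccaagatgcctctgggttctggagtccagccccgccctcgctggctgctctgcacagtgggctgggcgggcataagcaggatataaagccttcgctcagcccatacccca
The core of Cyp1a1 began 54 bases ahead of the start and that of Cyp1b1 76 bases ahead, on the other strand. The 3 cores of Ahrr began 107, 82 and 27 bases ahead. The window of Nqo1, a gene also under the oxidant-responsive factor NRF2, held no core. Bases further ahead were not searched for any of these genes, and the letters beside each core were not examined. These are mouse sequences, whereas the tables' gene models carry rat identifiers. A match of letters is a description and shows no binding.

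**Figure D1:**
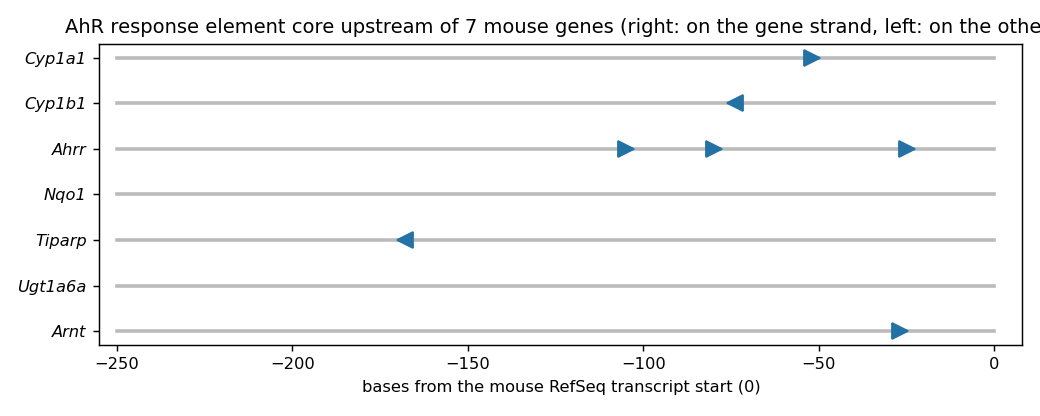
Positions of the core GCGTG, on either strand, in the 250 bases ahead of the start of 7 mouse genes; the horizontal axis is the distance from the start in bases. Ahrr held 3 cores, Cyp1a1, Cyp1b1, Tiparp and Arnt 1 each, and Nqo1 and Ugt1a6a none.

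Libraries held 45.5 to 60.8 M counts (M for mega). Cardiomyocyte markers were high in FPKM (fragments per length of gene and per depth of library), with means over 12 samples of 5246 for Actc1, 2141 for Tnnt2 and 1234 for Myh6. Mb, which encodes myoglobin and is usually abundant in heart muscle, averaged only 23.8 FPKM, and the endothelial marker Cldn5 averaged 0.0871 FPKM. The T-cell marker Cd3e was at 0 in every sample. In these bulk samples, fewer cells of a type and less RNA per cell cannot be told apart. Whether the rat gene models, against the labelled mouse, affected such levels was not tested.

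Cyp1a1, Cyp1b1, Ahrr, Aldh3a1 and Nqo1 were higher in all 3 Lip-1+MI samples than in any of the other 9. Against MI, 7 of the 9 genes were higher and passed the test, namely Cyp1a1, Aldh3a1, Ahrr, Nqo1, Cyp1b1, Ugt1a6 and Tiparp. Ahr was lower and passed, and Arnt did not pass. Over all genes tested, 6.10% were called between these groups, with 3.05% higher and 3.05% lower. The median log2 fold change of the 9 genes, which were selected on differences in these libraries, was 0.95, beside -0.01 over all genes tested. The calls of Tiparp and Ahr were lost under some alternatives, given with each gene.

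In the Fer-1+MI group, 1 of the 9 genes, Nqo1, was higher than in MI and passed the test, where 5.36% of all genes were called, 2.29% higher and 3.07% lower. Against Sham, ligation alone gave 3 higher genes (Cyp1b1, Tiparp and Ahrr), 5 lower genes (Aldh3a1, Nqo1, Ugt1a6, Ahr and Arnt) and Cyp1a1 without a call. That stood against a background of 43.6% of all genes called, with 22.8% higher and 20.8% lower. Samples of these 2 groups did not overlap in 8 of the 9 genes and in 53.8% of all genes. The comparisons of each compound with MI, and of MI with Sham, share the MI libraries.

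**Figure D2:**
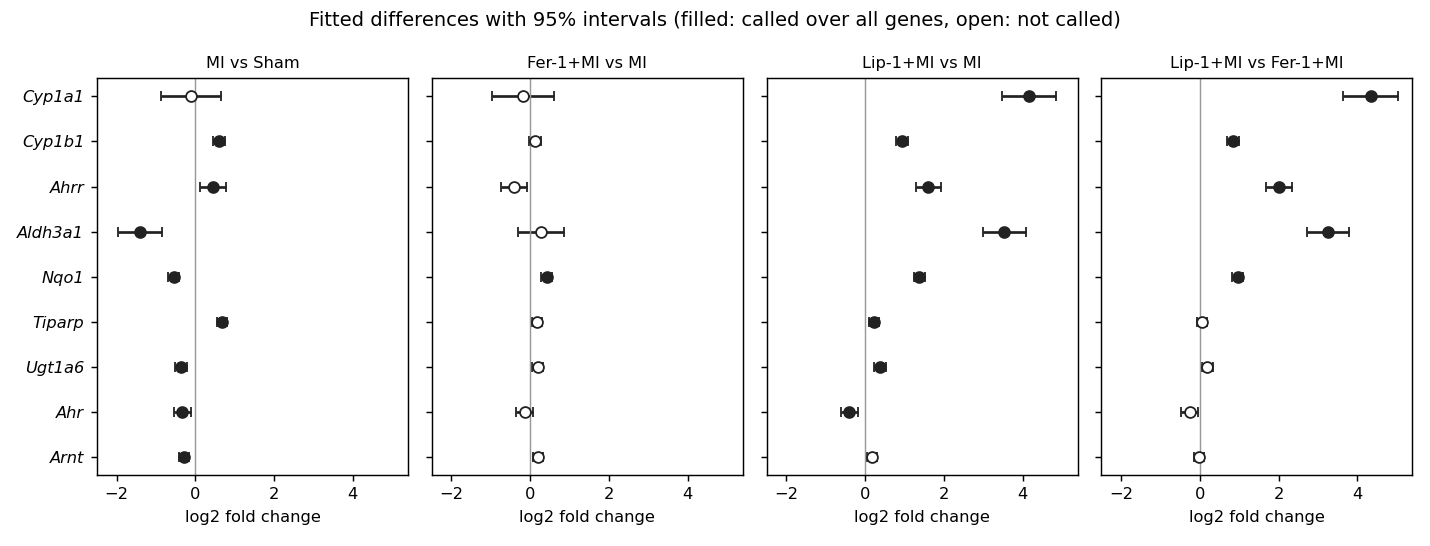
Log2 fold changes of the 9 genes in 4 comparisons from the edgeR fit, with 95% intervals; filled points passed the test over all genes. For Lip-1+MI against MI the points run from 4.16 for Cyp1a1 down to -0.41 for Ahr, while for Fer-1+MI against MI only Nqo1, at 0.42, is filled.

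The receptor gene Ahr (ENSRNOG00000004342, chromosome 6, 54963990 to 55001464, minus strand in the files' coordinates) was highest in Sham and lowest with Lip-1. Counts were scaled to CPM, which divides each count by its library total adjusted by the TMM factor. Ahr had 28.9, 29.1 and 28.7 CPM in Sham and 25.3, 22.6 and 21.1 CPM in MI. Pre-treated samples had 21.0, 21.9 and 19.5 CPM with Fer-1 and 18.8, 14.0 and 19.2 CPM with Lip-1. All 3 Lip-1+MI samples lay below the other 9, as did 1.22% of all genes tested, and MI and Fer-1+MI overlapped. The log2 fold change was -0.33 ± 0.10 (SE) for MI against Sham and -0.41 ± 0.10 for Lip-1+MI against MI, and both passed the test. For Lip-1+MI against Sham it was -0.74 ± 0.10. The call against MI was lost without Lip-1+MI sample 2, the lowest, at -0.27, and without MI sample 1, at -0.33. The call of MI against Sham was lost without MI sample 3, at -0.27. Limma on the FPKM values gave -0.31 for Lip-1+MI against MI with a pseudocount of 1, and a fit of only those groups gave -0.40, both without a call.

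Arnt (ENSRNOG00000031174, chromosome 2, 196594303 to 196651179, plus strand) encodes the partner that AhR shares with the hypoxia factor HIF-1α. Its values were 47.3, 49.0 and 50.5 CPM in Sham and 38.1, 40.8 and 40.8 CPM in MI. The Fer-1+MI samples stood at 41.8, 48.8 and 46.1 CPM and the Lip-1+MI samples at 44.2, 43.9 and 46.7 CPM. MI was the lowest group and did not overlap any other. In MI against Sham, Arnt fell by 0.29 ± 0.06 on the log2 scale and passed the test. Both treated groups lay above MI without passing it, at 0.19 (95% interval 0.06 to 0.32) with Fer-1 and 0.17 (0.04 to 0.30) with Lip-1. The Fer-1 value passed without Fer-1+MI sample 1, at 0.25, and under DESeq2, at 0.20.

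Cyp1a1 (ENSRNOG00000019500, chromosome 8, 62472095 to 62478147, plus strand) encodes the P450 enzyme that is the textbook readout of active AhR. It was low in 9 samples and higher in the 3 with Lip-1. The raw counts were 26, 60 and 48 for Sham samples and 18, 67 and 30 for MI samples. Fer-1+MI samples had 36, 43 and 27 counts, and Lip-1+MI samples 596, 788 and 932. Scaled, these were 0.526, 1.13 and 0.751 CPM in Sham and 0.398, 1.14 and 0.639 CPM in MI. After ligation with a compound it had 0.795, 0.742 and 0.453 CPM (Fer-1) and 10.3, 13.5 and 16.2 CPM (Lip-1). Sham, MI and Fer-1+MI overlapped one another, and the lowest Lip-1+MI sample was far above the highest of the others. Against MI the log2 fold change was 4.16 ± 0.32 (95% interval 3.47 to 4.85), a 17.9-fold difference and the 21st highest rise of all genes tested. It was 4.05 ± 0.32 against Sham and 4.34 ± 0.33 against Fer-1+MI. Leaving out any 1 sample gave 3.88 to 4.68 against MI. The other 2 comparisons had no call, with -0.11 (-0.88 to 0.66) for MI against Sham and -0.18 (-0.97 to 0.61) for Fer-1+MI against MI. These small differences changed sign when single samples were left out.

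Cyp1b1 (ENSRNOG00000040287, chromosome 6, 2307808 to 2316722, minus strand) encodes a P450 of the same family that acts on oestrogens, retinoids and arachidonic acid, and is known from fibroblasts and smooth muscle. Unlike Cyp1a1 it was abundant in every sample, with 284, 306 and 312 CPM in Sham and 428, 470 and 472 CPM in MI. With Fer-1 it stood at 466.5, 466.7 and 549 CPM, and with Lip-1 at 825, 842 and 974 CPM. MI lay above Sham without overlap, Fer-1+MI overlapped MI, and Lip-1+MI lay above all. The log2 fold change was 0.60 ± 0.07 for MI against Sham, 0.11 (95% interval -0.04 to 0.27) for Fer-1+MI against MI and 0.95 ± 0.07 for Lip-1+MI against MI. The first and the last passed the test. The summed level of 9 fibroblast markers was 16052 to 16694 CPM in Sham and 22376 to 24616 CPM in MI. It was 19773 to 21140 CPM with Fer-1 and 18958 to 19030 CPM with Lip-1. Most of this sum is collagen: Col1a1 averaged 15681 CPM in MI and 11827 CPM in Lip-1+MI. Of 9 fibroblast markers tested in that comparison, Col1a1 and Col3a1 were lower and Dcn was higher (1.61-fold), and the median log2 fold change of the 9 was 0.07. The part of these markers in the Cyp1b1 difference was not tested.

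Ahrr (ENSRNOG00000014721, chromosome 1, 31603297 to 31698329, plus strand) encodes the AhR repressor, which competes with AhR for Arnt. It had 3.44, 2.66 and 4.14 CPM in Sham and 4.91, 4.53 and 4.60 CPM in MI. Pre-treated samples had 3.56, 3.12 and 3.84 CPM with Fer-1 and 12.4, 13.7 and 16.7 CPM with Lip-1. The Lip-1+MI samples stood above the rest, which ran from 2.66 to 4.91 CPM. Against MI the log2 fold change was 1.61 ± 0.15, a 3.05-fold difference. The rise of 0.45 ± 0.16 for MI against Sham passed the test narrowly. That call was lost without Sham sample 1 (0.45), Sham sample 2 (0.30), MI sample 1 (0.41) or MI sample 3 (0.46), with library size alone (0.29), in limma on the FPKM values (0.13 with a pseudocount of 1) and with only those groups fitted (0.44). With Fer-1, all 3 Ahrr values lay below MI, with a log2 difference of -0.41 (95% interval -0.75 to -0.08), without passing.

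Tiparp (ENSRNOG00000011238, chromosome 2, 157316266 to 157341469, plus strand) encodes an ADP-ribosyltransferase that marks AhR for loss and is among its early targets. Its values were 48.6, 46.4 and 48.2 CPM in Sham and 77.6, 81.6 and 68.7 CPM in MI. The Fer-1+MI samples stood at 82.7, 82.0 and 91.4 CPM and the Lip-1+MI samples at 92.7, 85.8 and 88.5 CPM. All 9 ligated samples lay above Sham, and the treated groups overlapped each other. In MI against Sham it rose by 0.67 ± 0.06 on the log2 scale and passed the test. Lip-1+MI exceeded MI by only 0.23 ± 0.06, which passed the test, and Fer-1+MI by 0.17 (95% interval 0.04 to 0.30), which did not. The Lip-1 call was lost without MI sample 1 (0.24), MI sample 3 (0.16), Lip-1+MI sample 1 (0.20) or Lip-1+MI sample 3 (0.23). It was also lost in limma on the FPKM values (0.23 with a pseudocount of 1) and with only those groups fitted (0.23).

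Aldh3a1 (ENSRNOG00000002331, chromosome 10, 47490153 to 47499876, plus strand) encodes an aldehyde dehydrogenase that clears aldehydes from lipid peroxidation. It had 2.2, 3.72 and 3.58 CPM in Sham and 1.68, 0.916 and 1.04 CPM in MI. After ligation with a compound it had 1.17, 1.23 and 1.95 CPM (Fer-1) and 11.4, 14.4 and 15.9 CPM (Lip-1). It thus moved in both directions: every MI sample was below every Sham sample, and every Lip-1+MI sample was above Sham. In MI against Sham it fell by 1.40 ± 0.26 on the log2 scale and passed the test. Lip-1+MI was higher than MI by 3.53 ± 0.26 (11.6-fold), the 22nd highest rise of all genes, next after Cyp1a1. Fer-1+MI differed from MI by 0.28 (95% interval -0.31 to 0.87), without a call.

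Nqo1 (ENSRNOG00000012772, chromosome 19, 38422164 to 38437180, plus strand) encodes a quinone reductase under both AhR and NRF2. Its values were 44.7, 51.5 and 51.9 CPM in Sham and 34.7, 34.8 and 31.4 CPM in MI. Pre-treated samples had 45.2, 45.0 and 44.3 CPM with Fer-1 and 81.7, 91.6 and 88.9 CPM with Lip-1. MI was the lowest group, Fer-1+MI lay within the Sham range or just under it, and Lip-1+MI was above all. The log2 fold change was -0.55 ± 0.07 for MI against Sham, 0.42 ± 0.07 for Fer-1+MI against MI and 1.38 ± 0.07 for Lip-1+MI against MI. All 3 passed the test, and they kept their calls in every alternative run. Nqo1 was the only one of the 9 genes called with both compounds against MI.

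Ugt1a6 (ENSRNOG00000018740, chromosome 9, 95161157 to 95302822, plus strand) encodes a glucuronosyltransferase of the conjugating phase. Its gene model spans 141666 bp and overlaps Dnajb3 on the other strand. Transcripts of the UGT1A cluster share their last exons, so which of them were counted here is uncertain. It had 40.6, 38.5 and 39.9 CPM in Sham and 31.8, 33.0 and 27.5 CPM in MI. The Fer-1+MI samples stood at 35.9, 35.9 and 33.3 CPM and the Lip-1+MI samples at 39.0, 40.0 and 40.7 CPM. MI was the lowest group, and Lip-1+MI overlapped Sham. The log2 fold change was -0.37 ± 0.07 for MI against Sham and 0.37 ± 0.07 for Lip-1+MI against MI, and both passed. Lip-1+MI against Sham gave 0.01 (95% interval -0.14 to 0.15).

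**Figure D3:**
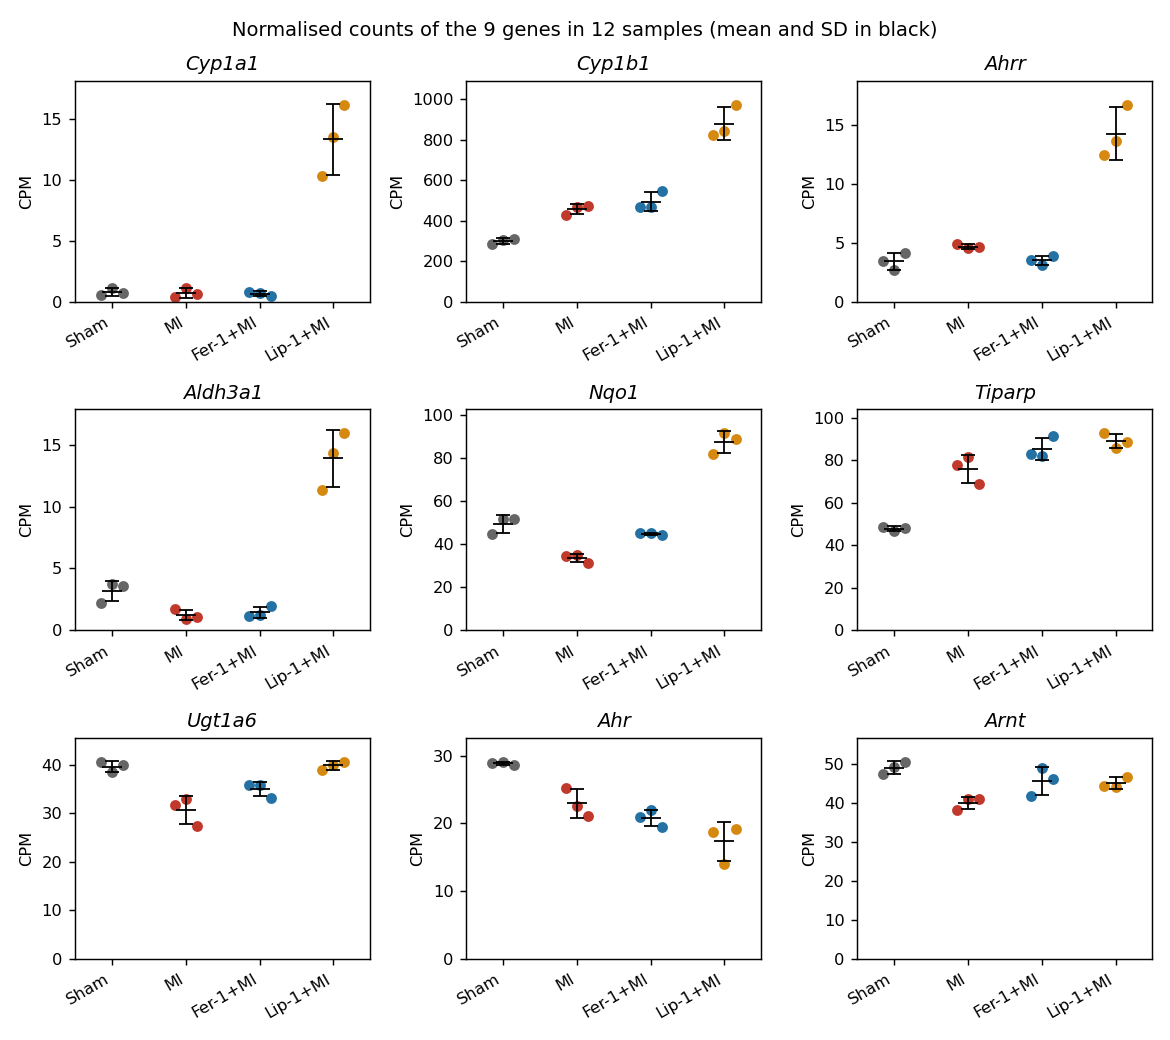
CPM of the 9 genes in each sample (points), with group means and SD (n = 3), 1 panel per gene, each with its own linear axis. In Cyp1a1, Cyp1b1, Ahrr, Aldh3a1 and Nqo1 the 3 Lip-1+MI samples lie above the other 9, and in Ahr they lie below them.

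In Cyp1a1, Cyp1b1, Ahrr, Aldh3a1 and Nqo1, all 3 Lip-1+MI samples exceeded the other 9, a pattern found in 325 genes or 1.92% of those tested. Of the 9 genes, 9 did not overlap between Lip-1+MI and MI, against 23.6% of all genes. Between Fer-1+MI and MI, 5 did not overlap, against 21.0%. Among the 3 Lip-1+MI samples, sample 1 was the lowest in 6 of the 9 genes. Sample 3 was the highest in 7, Ahr and Arnt among them. How many of all genes show this order was not tested. For Cyp1a1 the highest Lip-1+MI sample was 1.57 times the lowest. Over the 12 samples, log2 CPM of Cyp1a1 had a Pearson correlation of 0.91 with Ahrr, 0.91 with Nqo1, 0.89 with Aldh3a1 and 0.82 with Cyp1b1. With the other genes it was 0.53 for Ugt1a6, 0.41 for Tiparp, 0.096 for Arnt and -0.66 for Ahr. The genes with the high values share with Cyp1a1 the 3 high Lip-1+MI samples, which by itself raises such a correlation. The samples share their groups and libraries, and these values are a description.

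Between the treated groups, Lip-1+MI exceeded Fer-1+MI in 5 genes, where 3.15% of all genes were called, 1.74% higher and 1.41% lower. The groups did not overlap in 7 of the 9 genes and in 18.8% of all genes. The log2 fold changes were 4.34 ± 0.33 for Cyp1a1, 3.25 ± 0.25 for Aldh3a1, 2.02 ± 0.16 for Ahrr, 0.96 ± 0.07 for Nqo1 and 0.83 ± 0.07 for Cyp1b1. The other 4 were not called. Their 95% intervals were -0.07 to 0.19 for Tiparp, 0.04 to 0.33 for Ugt1a6, -0.48 to -0.04 for Ahr and -0.15 to 0.11 for Arnt. The doses differed, so compound and dose cannot be told apart.

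Against Sham, Lip-1+MI was higher in 6 genes and lower in Ahr, with 38.8% of all genes called, 20.8% higher and 18.0% lower. The groups did not overlap in 8 of the 9 genes, against 51.3% of all genes. The rises were 4.05 for Cyp1a1, 2.13 for Aldh3a1, 2.06 for Ahrr, 1.55 for Cyp1b1, 0.90 for Tiparp and 0.82 for Nqo1 on the log2 scale. Fer-1+MI was higher in 2 genes (Cyp1b1 at 0.72 and Tiparp at 0.84) and lower in 3 (Aldh3a1 at -1.12, Ahr at -0.48 and Ugt1a6 at -0.18), with 36.3% called, 19.6% higher and 16.7% lower. These groups did not overlap in 5 of the 9 genes, against 47.5% of all genes. The Ugt1a6 call was lost in several alternatives, including with any Sham or any Fer-1+MI sample left out (-0.14 to -0.20). With library size alone as scaling, the median log2 fold change of all genes against Sham was -0.17 for MI, -0.16 for Fer-1+MI and -0.19 for Lip-1+MI. With TMM these medians were -0.004, -0.014 and -0.021. Calls for MI against Sham then split into 2414 higher and 5943 lower, in place of 3860 and 3509. For Fer-1+MI against Sham the split was 1980 and 5325 in place of 3306 and 2831, and for Lip-1+MI against Sham 1994 and 5909 in place of 3514 and 3042. With that scaling Nqo1 (-0.28) and Arnt (-0.25) also passed as lower in Fer-1+MI than in Sham, and Arnt (-0.29) as lower in Lip-1+MI than in Sham. These calls also appeared in limma on the FPKM values, at -0.26, -0.22 and -0.25 in that order with a pseudocount of 1. Nqo1 in Fer-1+MI against Sham also passed without Sham sample 1 (-0.20). With library size alone, the split for Lip-1+MI against Fer-1+MI moved from 295 higher and 238 lower to 234 and 297.

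Per unit of transcript length the genes ranked differently from their fold changes. The part of the rat gene models in these levels was not tested. Mean FPKM in Lip-1+MI was 136 ± 13.0 (SD, n = 3) for Cyp1b1, 47.2 ± 2.73 for Nqo1, 32.2 ± 1.28 for Tiparp and 15.7 ± 0.577 for Arnt. It was 6.75 ± 1.14 for Aldh3a1, 4.31 ± 0.963 for Cyp1a1, 3.63 ± 0.0849 for Ugt1a6, 2.87 ± 0.484 for Ahr and 2.59 ± 0.409 for Ahrr. Cyp1a1, with the largest fold, thus stayed far below Cyp1b1 in level. The mean FPKM difference between Lip-1+MI and MI was 65.9 for Cyp1b1, 29.1 for Nqo1, 6.17 for Aldh3a1 and 4.08 for Cyp1a1. In MI, Cyp1a1 averaged 0.231 ± 0.124 FPKM and was the lowest of the 9 genes.

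**Figure D4:**
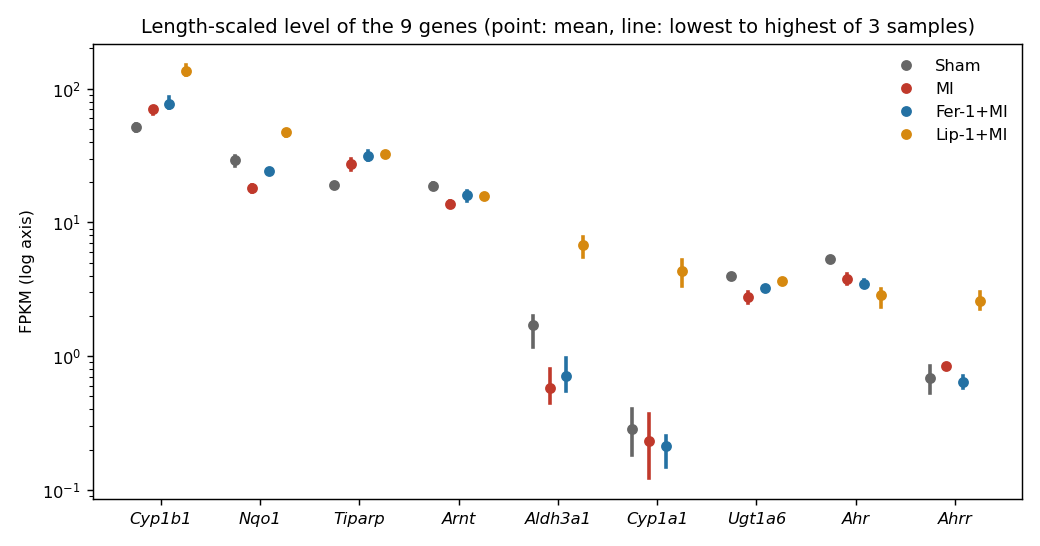
Mean FPKM of the 9 genes in each group on a log axis, with the lowest and highest sample as bars (n = 3). Cyp1b1 is highest in every group, from 51.5 FPKM in Sham to 136 FPKM in Lip-1+MI, and Cyp1a1 climbs from 0.231 FPKM in MI to 4.31 FPKM in Lip-1+MI.

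The wider pathway was read from 7 lists of further genes with 99 tested members, of which 13 were called between Lip-1+MI and MI (9 higher and 4 lower), where 6.10% of all genes were called. That count was 4 without MI sample 1, 8 without MI sample 2, 7 without MI sample 3, and 5 without Lip-1+MI sample 1 or sample 3. Of 16 further AhR targets tested, 2 rose and 1 fell, with a median log2 fold change of -0.02 beside -0.01 over all genes. Xdh, which encodes xanthine dehydrogenase, rose from 99.9 to 121.5 CPM (log2 fold change 0.28 ± 0.06, edgeR adjusted p = 0.0062). Ereg, an EGF-family ligand, rose by 0.64 ± 0.16 (edgeR adjusted p = 0.0223), a call lost without MI sample 1 (0.60) or 3 (0.57) or Lip-1+MI sample 1 (0.66) or 3 (0.56). Slc7a5, an amino acid transporter gene, fell by 0.22 ± 0.05 (edgeR adjusted p = 0.0206), also a call lost without MI sample 1 (-0.22) or 2 (-0.20) or Lip-1+MI sample 1 (-0.22) or 3 (-0.18). With Fer-1 against MI, 1 of the 16 rose and 2 fell, where 5.36% of all genes were called. Xdh rose by 0.27 ± 0.06 (edgeR adjusted p = 0.00974), a call lost without Fer-1+MI sample 3 (0.21), and Slc7a5 fell by 0.34 ± 0.06 (edgeR adjusted p = 0.000985). Between Lip-1+MI and Fer-1+MI 0 of the 16 were called in edgeR, DESeq2 or limma, and 4 had an unadjusted edgeR p under 0.05. Cyp1a2, the liver-type relative of Cyp1a1, was too low to test, with a mean of 0.0221 CPM in MI and 0 CPM in Lip-1+MI.

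Genes upstream of the targets were read in 2 lists, again where 6.10% of all genes were called between Lip-1+MI and MI. Of 16 chaperones and cofactors of AhR, 0 passed in edgeR, 3 had an unadjusted p under 0.05 and 1 passed in DESeq2, with a median of -0.05. Limma on the FPKM values called 0. Of 11 genes of kynurenine and tryptophan metabolism, 2 rose. Aadat, whose enzyme turns kynurenine into kynurenic acid, rose from 8.95 ± 0.618 to 19.5 ± 1.07 CPM (log2 fold change 1.13 ± 0.10, edgeR adjusted p = 1.44e-06) with Lip-1. It stood at 20.8 CPM in Sham and fell by 1.22 ± 0.10 with ligation (edgeR adjusted p = 1.45e-08). With Fer-1 it rose by 0.57 ± 0.10 (edgeR adjusted p = 0.00161), and Lip-1+MI exceeded Fer-1+MI by 0.55 (edgeR adjusted p = 0.00261). Slc7a8, an amino acid transporter gene, rose by 0.28 ± 0.05 with Lip-1 (edgeR adjusted p = 0.00332) and by 0.24 ± 0.05 with Fer-1 (edgeR adjusted p = 0.0104). The Fer-1 call was lost without MI sample 3 (0.20) or Fer-1+MI sample 2 (0.22).

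Of 19 NRF2 targets and regulators outside the 9 genes, 1 rose and 2 fell between Lip-1+MI and MI, with a median of -0.01. Over all genes, 3.05% were called higher and 3.05% lower between these groups. Limma on the FPKM values called 1 of the 19 there. The 1 that rose in edgeR was Nfe2l2, which encodes NRF2, by 0.16 ± 0.05 (edgeR adjusted p = 0.0447). That call was lost in 14 of 20 alternatives. Hmox1, the haem oxygenase gene, averaged 925.5 CPM in MI and 803 CPM in Lip-1+MI and fell by 0.20 ± 0.05 (edgeR adjusted p = 0.0235). That call was lost without MI sample 1 (-0.15) or 3 (-0.21), or without Lip-1+MI sample 2 (-0.21) or 3 (-0.18). Nqo1, selected on differences in these libraries, was 2.60-fold higher in the same samples. The part of NRF2 in the Nqo1 difference was not tested. With Fer-1 against MI, 5 of the 19 rose, where 2.29% of all genes were called higher, among them Gsta4, a glutathione transferase gene, by 0.49 ± 0.07 (edgeR adjusted p = 0.000163) and Hmox1 by 0.34 ± 0.05 (edgeR adjusted p = 0.000486). Directly compared, Lip-1+MI was lower than Fer-1+MI in 4 of the 19 and higher in 1, where 1.41% of all genes were called lower and 1.74% higher. Limma on the FPKM values called 3 of the 19. In edgeR the difference was -0.55 for Hmox1 (edgeR adjusted p = 4.36e-06) and -0.37 for Gclc, of glutathione synthesis (edgeR adjusted p = 0.00024). The higher gene was Nfe2l2, by 0.19 ± 0.05 (edgeR adjusted p = 0.0294), a call lost in 8 of 20 alternatives.

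Hypoxia targets that also depend on Arnt were higher after ligation. All 15 rose in MI against Sham, where 22.8% of all genes were called higher, with a median of 1.36. Between Lip-1+MI and MI 1 of them fell, Ca9, by 0.55 ± 0.15 (edgeR adjusted p = 0.0301), and the median was -0.03. Over all genes, 3.05% were called higher and 3.05% lower between these groups. The Ca9 call was lost when any 1 MI sample, or Lip-1+MI sample 1 or 3, was left out (-0.48 to -0.59). Of 11 other PAS-family genes and Arnt partners, 2 rose with Lip-1, Hif1a and Epas1, which encode hypoxia factors, by 0.18 ± 0.05 and 0.19 ± 0.05 (edgeR adjusted p = 0.0268 and 0.0279). Both calls were lost when MI sample 1 or 2, or Lip-1+MI sample 1 or 3, was left out, with values of 0.15 to 0.19 for Hif1a and 0.16 to 0.19 for Epas1. With Fer-1, Epas1 rose by 0.18 ± 0.05 (edgeR adjusted p = 0.0411), a call lost without MI sample 1 or 2 or any 1 Fer-1+MI sample (0.15 to 0.20) and in 4 other alternatives. Of 11 other P450s and their receptors, 2 rose between Lip-1+MI and MI, where 3.05% of all genes were called higher. Cyp51, a sterol demethylase gene of cholesterol synthesis, rose from 85.3 to 130.6 CPM (0.61 ± 0.06, edgeR adjusted p = 3.65e-06). With ligation it fell by 0.59 ± 0.06. Further AhR targets with ligation numbered 8 higher and 1 lower of 16, against 22.8% higher and 20.8% lower over all genes. Their median log2 fold change was 0.22, beside -0.004 over all genes. Among those higher were Hes1 (0.86 ± 0.08), Ereg (1.47 ± 0.18) and Cdkn1b (0.52 ± 0.07). Xdh was the 1 that fell, by 0.91 ± 0.06 (edgeR adjusted p = 6.76e-10).

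**Figure D5:**
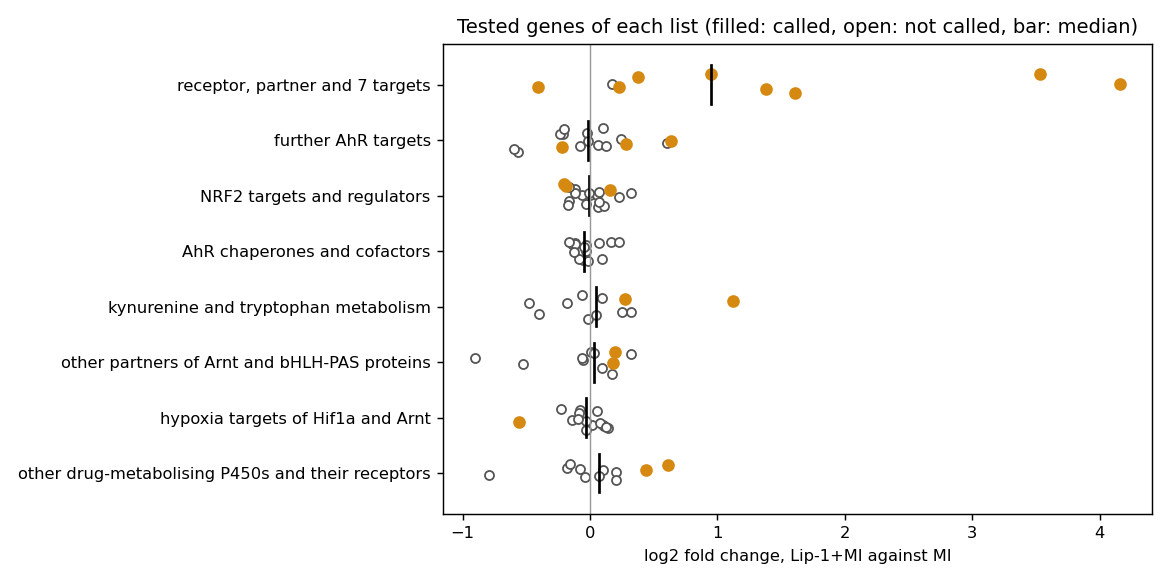
Log2 fold change of every tested gene of the lists, Lip-1+MI against MI, with a bar at each list's median. The 9 AhR pathway genes have a median of 0.95, and the other lists have medians between -0.05 and 0.07. The 9 genes were selected on expression differences seen in these libraries, so this contrast is a description and no test.

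By likeness of log2 CPM over the 12 samples, among 13849 genes with a mean of at least 1 CPM, the closest to Cyp1a1 were Cstb (Pearson r 0.98), Gabarap (0.93), Atp1b3 (0.93), Sdcbp2 (0.92) and Atp6v1d (0.91). Cstb, the gene of the protease inhibitor cystatin B, averaged 181 CPM in Sham, 176 in MI, 177 in Fer-1+MI and 226 in Lip-1+MI. The closest to Cyp1b1 were Tax1bp1 (0.98), Insig1 (0.96), Ddx3x (0.96), Btaf1 (0.95) and C1qbp (0.95). Insig1, a sterol-sensing regulator gene of cholesterol synthesis, averaged 146, 181, 196 and 299 CPM in the same order of groups. These genes were picked for likeness out of many, the samples share their groups, and no test applies.

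Markers of other cells changed in places between Lip-1+MI and MI, where 3.05% of all genes were called higher and 3.05% lower. Of 10 cardiomyocyte markers 2 were lower (Tnni3 and Mb), and of 9 endothelial markers 1 was lower (Vwf). Of 10 mural markers 1 was higher (Abcc9) and 2 were lower (Tagln and Notch3). Limma on the FPKM values called 0 of these cardiomyocyte markers, 1 of the endothelial and 2 of the mural markers. Of 10 macrophage markers 1 was lower (C1qa), of 7 epicardial markers 2 were lower (Upk3b and Krt8), and 6 neutrophil and 2 lymphocyte markers held no call in edgeR, DESeq2 or limma, with an unadjusted edgeR p under 0.05 in 3 neutrophil markers. Summed macrophage markers ran from 984 to 1124 CPM in MI and from 1040 to 1073 CPM in Lip-1+MI. Summed endothelial markers ran from 267 to 293 CPM and from 236 to 273 CPM. For hepatocytes, a cell type rich in AhR targets, 1 of 4 tested markers was higher (Ttr), while Alb ranged from 0 to 0.0276 FPKM in all samples. The part of such shifts in the differences of the 9 genes was not tested.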

How the data were processed

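RNA from 12 ventricle samples was sequenced as 150 bp pairs from stranded poly(A) libraries made from RNA with an integrity number over 7, per the labels' protocols. The submitters' processing notes name HISAT2 2.2.1, StringTie 2.1.6, cutadapt 1.9, edgeR, DESeq2 and FastQC, without their roles. No source used here says if reads were counted by strand. The authors deposited whole-number counts per gene, not normalised, and FPKM values per gene, scaled by the authors for length and depth. FPKM was used for levels between genes.

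Counts (45.5 to 60.8 M per sample) were filtered with filterByExpr (minimum count 10, minimum total 15), scaled with TMM and tested in edgeR 4.0.16 (R 4.3.3) with robust quasi-likelihood F tests. A single model held all 12 samples with group as factor (8 residual degrees of freedom), for 6 comparisons. P-values were Benjamini-Hochberg adjusted over 16910 genes, threshold 0.05. The method was also run on simulated counts with the same spread for every gene and changes in Lip-1+MI only, a simpler setting than these data. The 9 genes, the lists and the tests were chosen with earlier results of these data known. From each list, up to 3 called genes per direction with the smallest p could be named, and 5 genes by likeness to Cyp1a1 and to Cyp1b1. Alternatives were DESeq2 1.42.0 (test and size factors), library size alone, no filter, limma 3.58.1 on log2(FPKM + 1) and log2(FPKM + 0.1) of the deposited values, only the groups compared, the replicate number as a block, and each sample left out.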

Additional observations from a re-analysis of the deposited data

How the results depend on the processing

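Of 54 values (9 genes in 6 comparisons), 39 kept their direction and their side of the threshold in every alternative. The calls of Cyp1a1, Cyp1b1, Ahrr, Aldh3a1 and Nqo1 for Lip-1+MI against MI were among them. No called value changed sign. Samples of the same number showed little shared deviation (18 pairs, r from -0.02 to 0.09), and the main model did not pair them. Such a correlation over all genes cannot exclude that the numbers mark a shared step. With the replicate number as a block, and with DESeq2, 2 of the 9 genes were called for Fer-1+MI against MI in place of 1, since Arnt passed. Leaving out 1 sample gave 6 to 8 called genes for MI against Sham, 1 to 2 for Fer-1+MI against MI, 6 to 8 for Lip-1+MI against MI, 4 to 5 for Fer-1+MI against Sham, 7 for Lip-1+MI against Sham, 5 for Lip-1+MI against Fer-1+MI and 9 over the 4 groups. For the 99 list genes it gave 4 to 16 calls for Lip-1+MI against MI and 7 to 12 for Lip-1+MI against Fer-1+MI. In the latter comparison 11 were called, and 7 in limma on FPKM with either pseudocount. Of 68 list gene values, 45 were called in all 20 alternatives. Over all genes, calls for Fer-1+MI against MI numbered 907, with 550 when only those groups were fitted and 569 to 1071 with a sample left out. For Lip-1+MI against MI leaving out a sample gave 661 to 1134 in place of 1031, and for Lip-1+MI against Fer-1+MI 304 to 552 in place of 533, with 351 in limma on log2(FPKM + 0.1). The cause was not tested. Low counts limit Cyp1a1 outside Lip-1+MI, where 18 to 67 counts per sample cannot show small differences.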
